A study of Homo sapiens with 9 samples.

Results

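HOXA11 and NKX2-8, the homeodomain transcription factors (TFs) among the control TFs of the study, were compared with RORA and TFCP2, which bind DNA through other domains. The members were chosen by the TF named in the sample label, which gave 2 libraries a side and 4 of the 9 libraries of the series. Every library was RNA-seq of 293T cells, a transformed line from human embryonic kidney, 48 h after transfection with a plasmid that expressed the open reading frame of 1 TF from the EF1A promoter together with EGFP, or with no TF insert in the control library. The other 4 libraries carried NRF1, E2F4, EGR1 or ZBTB7A, which the study calls CLB_TFs. Each TF had 1 library and no repeat, so the spread within a side was the spread between 2 different TFs, and p-values in the comparison of the sides measure only that spread. The methods name an empty plasmid for the control, whereas the sample label calls it a blank.

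A homeodomain is a helix-turn-helix fold that reads a short, often A/T-rich site, and many homeodomain proteins gain selectivity from cofactors such as PBX and MEIS proteins. HOXA11 is a posterior HOX factor known from limb, kidney and uterine development, and NKX2-8 belongs to the NK2 class, whose members prefer a CAAGTG core and act in lung, liver and neural development. RORA is an orphan nuclear receptor that binds a single AGGTCA half-site and acts in the circadian clock and in metabolism. TFCP2 belongs to the CP2 family of the grainyhead superfamily and binds paired half-sites of the CTGG type.

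The 4 libraries held 15181031 to 17746740 counts, within the range of 14177970 to 18915400 of the series. The inserted gene was far above every other library in its own library, with 87289 counts of HOXA11 after HOXA11 transfection against 727 to 1904 elsewhere, and 87185 counts of NKX2-8 after NKX2-8 transfection against 60 to 107 elsewhere. The HOXA11 library also held 1097 counts of RORA against 160 to 294 in the others that did not carry RORA, and the control library held 9812 counts of TFCP2 against 653 to 703. The part of these reads in the results was not tested. All 8 markers listed for 293T cells reached a level of 1 CPM (counts scaled to the library size in units of 1e6), with a summed level of 1480 to 1950 CPM over the 9 libraries, whereas the 8 leukocyte markers summed to 2.59 to 5.84 CPM, the 8 fibroblast markers to 28.1 to 44.4 CPM and the 6 keratinocyte markers to 12.4 to 15.8 CPM. None of the 3 endothelial and 4 hepatocyte markers passed the filter on low counts. Counting error limits what can be said about genes at a few counts, and all intervals below cover counting error only.

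Of 15082 genes tested, with the 4 inserted TFs left out, only DHRS2 and VGF passed an adjusted p of 0.05 in edgeR's quasi-likelihood test. Both were higher with the homeodomain TFs. That was 0.0133% of the genes tested, and 0% were called lower. At an unadjusted p below 0.05, 633 genes were higher (4.2%) and 486 lower (3.22%).

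DHRS2, at chr14:24099324-24114848 on the plus strand of GRCh37, encodes a short-chain dehydrogenase/reductase of mitochondria and nucleus that is known to be induced by histone deacetylase inhibitors. It had 1356 counts with HOXA11 and 1195 with NKX2-8 against 113 with RORA and 80 with TFCP2. On the CPM scale the homeodomain libraries stood at 80.6 and 79.3, close to each other, with a HOXA11 to NKX2-8 ratio of 1.02 (95% interval 0.94 to 1.1). The RORA and TFCP2 libraries stood at 6.83 and 4.58 CPM and the control library at 4.89 CPM. The log2 fold change was 3.80 ± 0.15 (SE, n = 2 against 2, edgeR quasi-likelihood adjusted p = 1.457e-06). The level was not particular to homeodomain TFs, since the NRF1 library held 61.5 CPM and the ZBTB7A library 19.1 CPM, while E2F4 and EGR1 were at 3.81 and 5.99 CPM. When all 8 TF libraries shared 1 estimate of the spread, the adjusted p of DHRS2 was 0.973 and no gene was called.

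VGF, at chr7:100805790-100808874 on the minus strand of GRCh37, encodes a secreted neuropeptide precursor that neurotrophins and cAMP induce in neurons. It had 294 counts in the HOXA11 and 401 in the NKX2-8 library against 65 and 83 in the RORA and TFCP2 libraries, or 17.5 and 26.6 CPM against 3.93 and 4.75 CPM. The sides did not overlap, and the nearest libraries of the 2 sides differed 3.61-fold. The log2 fold change was 2.32 ± 0.22 (SE, n = 2 against 2, edgeR quasi-likelihood adjusted p = 0.004931). NKX2-8 exceeded HOXA11 by a ratio of 1.52 (95% interval 1.31 to 1.78). The control library was at 6.96 CPM, above both RORA and TFCP2, and the EGR1 library was at 42 CPM, the highest of the 9. With all 8 TF libraries in the fit the adjusted p of VGF was also 0.973. Both calls remained when any 1 of the 4 libraries was left out. The number of genes called, these 2 included, depended on 1 library, with 786 higher and 962 lower without HOXA11, 48 and 16 without NKX2-8, 4 and 1 without RORA, and 3 and 0 without TFCP2. In these fits the lone sample of a side is assumed to vary like the pair on the other side.

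The promoters of the called genes are shown with that of HSPA6, described next, which had the largest log2 fold change of the separated genes with a symbol. The windows run from 250 bases before to 50 bases after the RefSeq start in GRCh38.p14. Capitals mark matches, on either strand, to TGACGTCA, the cAMP response element, and to GAANNTTC, a heat shock element core, which were both chosen after the values of these genes were seen. No window held a motif searched for the 4 TFs on both strands, namely CAAGTG for the NK2 class, either TTTATG or else TTTACG for posterior HOX factors, AGGTCA for RORA, and for TFCP2 a pair of CTGG half-sites with 6 bases between them.
DHRS2, chr14:23629865-23630164, plus strand: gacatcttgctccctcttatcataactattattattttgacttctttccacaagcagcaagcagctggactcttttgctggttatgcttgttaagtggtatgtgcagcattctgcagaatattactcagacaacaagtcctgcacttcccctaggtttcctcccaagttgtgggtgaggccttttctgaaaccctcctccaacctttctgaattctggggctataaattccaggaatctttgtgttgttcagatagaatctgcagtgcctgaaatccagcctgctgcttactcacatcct
VGF, chr7:101165520-101165819, minus strand: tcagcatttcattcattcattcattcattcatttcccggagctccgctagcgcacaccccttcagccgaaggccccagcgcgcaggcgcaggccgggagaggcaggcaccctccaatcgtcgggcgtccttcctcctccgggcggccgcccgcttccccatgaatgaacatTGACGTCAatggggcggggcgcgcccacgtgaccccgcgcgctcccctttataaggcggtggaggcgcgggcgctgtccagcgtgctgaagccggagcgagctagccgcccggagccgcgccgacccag
HSPA6, chr1:161524290-161524589, plus strand: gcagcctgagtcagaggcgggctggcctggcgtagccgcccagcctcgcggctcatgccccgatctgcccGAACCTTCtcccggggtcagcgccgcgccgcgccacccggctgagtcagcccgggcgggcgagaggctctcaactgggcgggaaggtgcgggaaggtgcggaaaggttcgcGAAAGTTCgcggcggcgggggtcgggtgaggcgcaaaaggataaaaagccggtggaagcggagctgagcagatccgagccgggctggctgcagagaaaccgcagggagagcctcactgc
The DHRS2 window had a GC content of 44% and 0 CpG dinucleotides, whereas those of VGF and HSPA6 had 67.7% and 70% GC with 35 and 33 CpGs. The median over all tested genes with a promoter sequence was 65.7% GC and 27 CpGs. In the VGF window the cAMP response element lay from -79 to -72 relative to the start, and the 2 heat shock cores of HSPA6 lay from -180 to -173 and from -69 to -62. TGACGTCA was present in 3.36% and GAANNTTC in 4.43% of 11255 promoters of tested genes. The gene positions above are on GRCh37 and the windows on GRCh38.p14, so the coordinates are not comparable. A match in these letters is a description of the sequence, not a binding site.

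Separation of the sides was counted without a p-value as well. A gene was called separated when the lower library of a pair was at least 2-fold above the higher library of the other pair and the higher pair had a mean of at least 1 CPM. Of the genes tested, 27 were separated with the homeodomain TFs higher (0.179%) and 1 with them lower (0.00663%). With no minimum gap, 18.4% of genes lay higher and 20.7% lower in both homeodomain libraries. Higher genes were thus the fewer without a minimum gap and the more numerous at a 2-fold gap. The separated higher genes were low, with 24 of the 27 under 5 CPM and a median of 1.22 CPM against 22.5 CPM over all genes tested.

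HSPA6, at chr1:161494330-161496700 on the plus strand of GRCh37, encodes an inducible HSP70 chaperone that is nearly silent without stress. It had 518 counts in the HOXA11 and 103 in the NKX2-8 library against 6 and 23 in the RORA and TFCP2 libraries, and 12 in the control library. The levels were 30.8 and 6.83 CPM against 0.362 and 1.32 CPM. The sides did not overlap, but the homeodomain libraries differed 4.51-fold from each other (95% interval 3.64 to 5.62), and the log2 fold change of 4.30 ± 0.69 had an adjusted p of 0.314 in edgeR's quasi-likelihood test. It was called when any 1 of the 4 libraries was left out, with a log2 fold change between 2.85 without HOXA11 and 5.30 without TFCP2. NRF1 again stood high at 13.9 CPM. HSP70 genes share sequence and only uniquely mapped reads were counted, so some reads of HSPA6 may be missing.

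FOXJ1, the regulator of motile cilia, had 22 counts with HOXA11 and 62 with NKX2-8 against 3 with RORA, 2 with TFCP2 and 0 in the control library, while E2F4 had 87. Its log2 fold change was 3.39 ± 0.59 (edgeR adjusted p = 0.314). ISLR2, a neuronal membrane protein with leucine-rich repeats, had 29 and 31 counts against 2 and 7, and NRF1 had 76. NEFH, the heavy neurofilament subunit, had 28 and 18 counts against 1 and 4, with 103 in the NRF1 and 85 in the EGR1 library. In these 3 genes the lower homeodomain library was 4.73-fold, 3.54-fold and 3.76-fold above the higher of RORA and TFCP2, and their adjusted p ran from 0.314 to 0.324.

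Of the remaining separated genes that the naming rule selected, SLC32A1, the vesicular GABA transporter, had 12 and 20 counts against 0 and 2. The NRF1 library had 137. RTBDN, a retinal riboflavin-binding protein, had 40 and 60 against 13 and 16, with 86 in the E2F4 library. TMEM151A had 39 and 77 against 15 and 15, with 173 in the NRF1 and 89 in the E2F4 library. GPR3, a constitutively active receptor that raises cAMP, had 48 and 37 against 15 and 17. The NRF1 library had 49 counts of GPR3 and the control library 34. NUDT19-DT, a divergent lncRNA, had 40 and 46 against 10 and 14, with 9 to 27 in the control and CLB_TF libraries. The only gene separated downward was the antisense lncRNA HDHD5-AS1 with 9 and 9 counts against 23 and 28. Its log2 fold change was -1.23 ± 0.37 (edgeR adjusted p = 0.533), and reads of a gene and its antisense partner cannot be told apart here because no source used here says whether strand entered the counting.

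**Figure D1:**
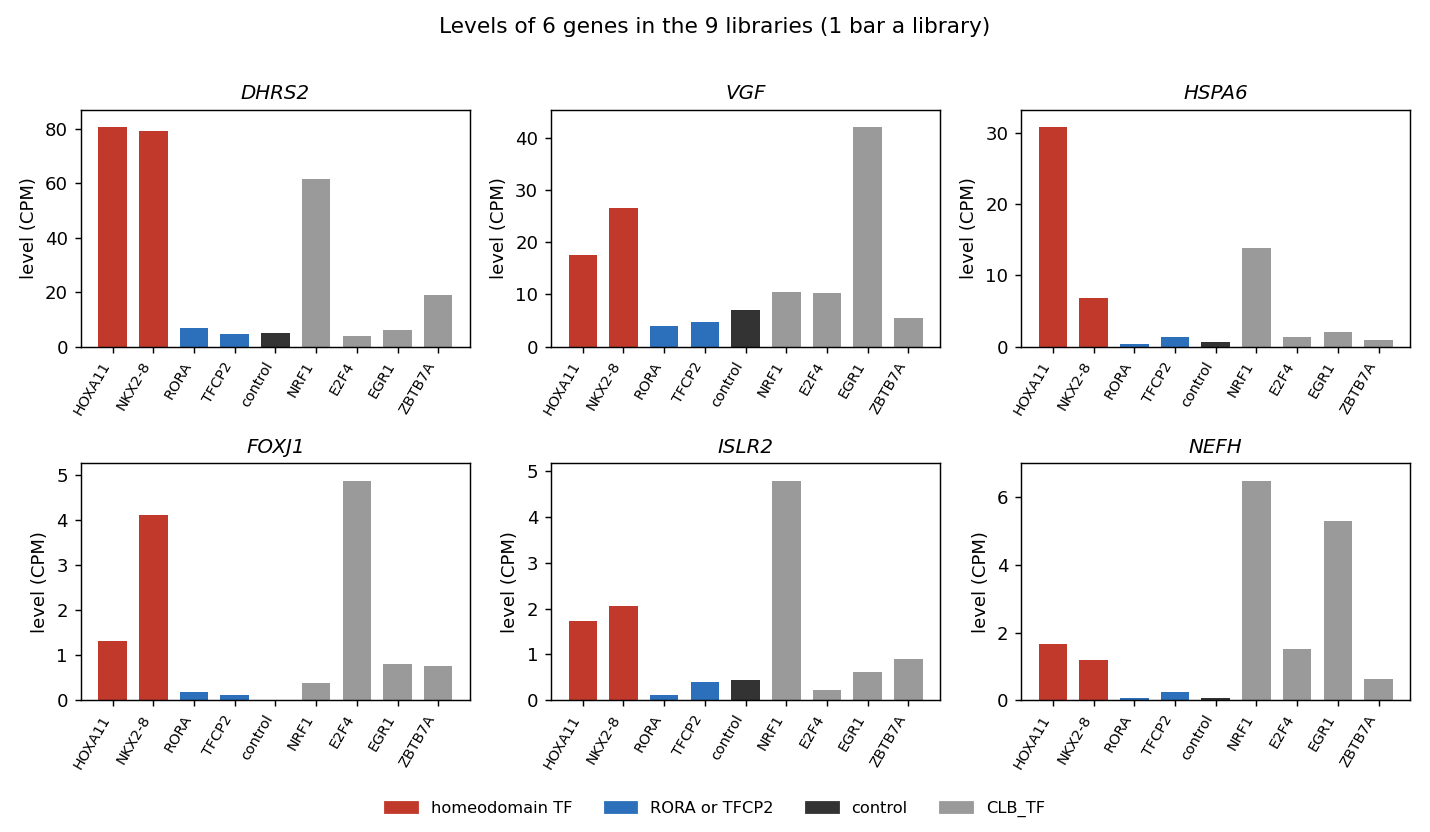
Levels of DHRS2, VGF, HSPA6, FOXJ1, ISLR2 and NEFH in CPM on linear axes that start at 0, with 1 bar for each of the 9 libraries, red for the homeodomain TFs, blue for RORA and TFCP2, black for the control and gray for the CLB_TFs. Both red bars stood above both blue bars in each gene, and a CLB_TF library reached or passed the lower red bar in each except DHRS2, where NRF1 stood at 61.5 CPM against 79.3 and 80.6.

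The separated genes were also looked up in the libraries that the comparison did not use. Of the 27, the NRF1 and EGR1 libraries were each above both RORA and TFCP2 in 23 genes (85.2%, against 35.4% and 30.2% of all genes tested), ZBTB7A in 20 and E2F4 in 18. The control library was above both in 5 genes (18.5%, against 34% of all genes). Since the genes were chosen in part for low RORA and TFCP2 values, these shares are a description and no independent result. In 11 of the 27 genes both homeodomain libraries stood above all 7 other libraries, which held for 4.95% of all genes tested, with 4.58% below all 7. The choice of the 27 had already fixed that they lay above RORA and TFCP2, so 4.95% is no matched background. Of all genes tested, 2780 lay above RORA and TFCP2 in both homeodomain libraries, and 746 lay above all 7. DHRS2, MISP, an actin-bundling protein of mitotic spindle orientation, PADI3, ZNF331 and NUDT19-DT were among these 11, and the other 6 were lncRNAs without a symbol.

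**Figure D2:**
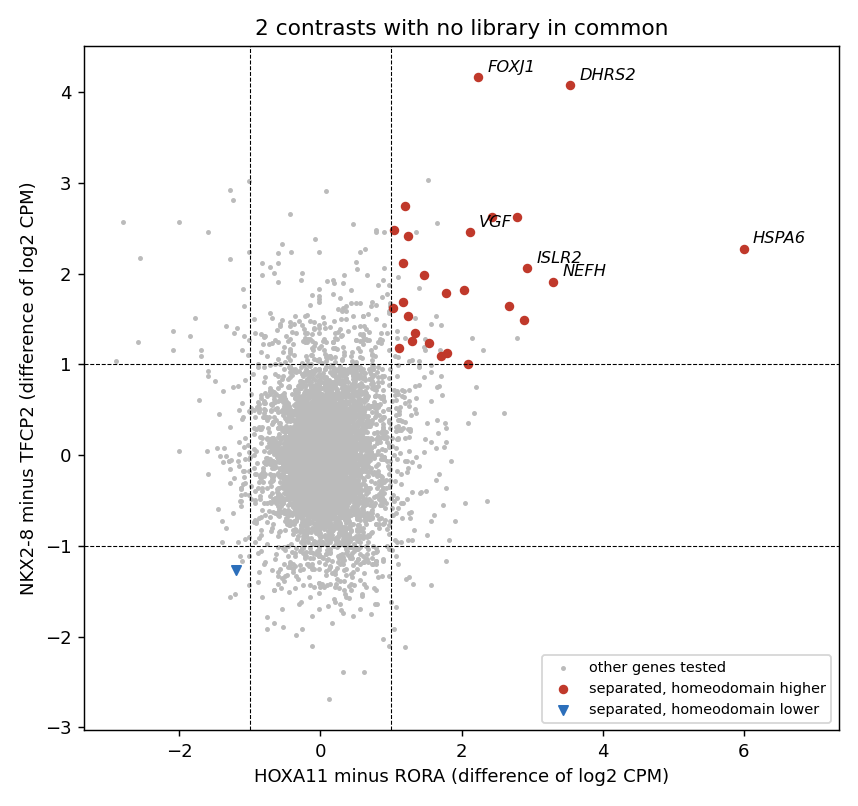
Difference of log2 CPM between HOXA11 and RORA (x axis) and between NKX2-8 and TFCP2 (y axis) for the genes tested, 1 point a gene, with dashed lines at a 2-fold difference. The 27 genes separated with the homeodomain TFs higher (red) lie in the upper right corner, and HDHD5-AS1 (blue) lies at the lower left, as the rule that chose them requires.

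To see what the homeodomain TFs shared without a library in common, HOXA11 was set against RORA and NKX2-8 against TFCP2. At a 2-fold difference and 1 CPM, 123 genes were higher in the first contrast and 240 in the second, and 28 were in both. These were 22.8% of the first list, where the second list was 1.59% of all genes, and 11.7% of the second list, where the first was 0.816% of all genes. Of the 50 (0.332% of all genes) and 185 (1.23%) genes that were lower, 1 was shared. With the partners exchanged, 115 (0.762%) and 244 (1.62%) genes were higher with 31 in common. In that exchange 51 (0.338%) and 91 (0.603%) genes were lower with 2 in common. A separated gene passes the 2-fold difference in both contrasts by definition. These overlaps therefore repeat the separation in part and are no independent result, and the shares of all genes are not matched for level. Across all 15082 genes, which are not independent replicates, Pearson's r between the contrasts was 0.0828 and 0.224.

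The homeodomain libraries differed more from each other than HOXA11 did from RORA or TFCP2. Over 9861 genes at 10 CPM or more, the SD of the log2 difference was 0.21 between HOXA11 and NKX2-8, 0.156 between HOXA11 and RORA and 0.15 between HOXA11 and TFCP2. NKX2-8 stood apart from all, with 0.218 against RORA and 0.233 against TFCP2, and RORA and TFCP2 were the nearest pair at 0.131. A 2-fold difference at 1 CPM or more was present in 337 genes between the homeodomain TFs, 425 between NKX2-8 and TFCP2 and 114 between RORA and TFCP2. HOXA11 was at least 2-fold above NKX2-8 in 167 genes (1.11%) and NKX2-8 above HOXA11 in 170 (1.13%). There were 83 lncRNAs among the first and 52 among the second, where lncRNAs made up 1883 of the 15082 genes tested. How much of this was counting error in low genes was not tested.

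Each library was then compared with the 3 other control TF libraries. NKX2-8 was at least 2-fold above the highest of them in 57 genes (0.378%) and at least 2-fold under the lowest in 26 (0.172%). HOXA11 was above in 10 genes (0.0663%) and under in 4 (0.0265%). RORA was above in 2 (0.0133%) and under in 3 (0.0199%), and TFCP2 was above in 2 (0.0133%) and under in 4 (0.0265%). Each of these counts rests on 1 library, so no p-value is given.

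**Figure D3:**
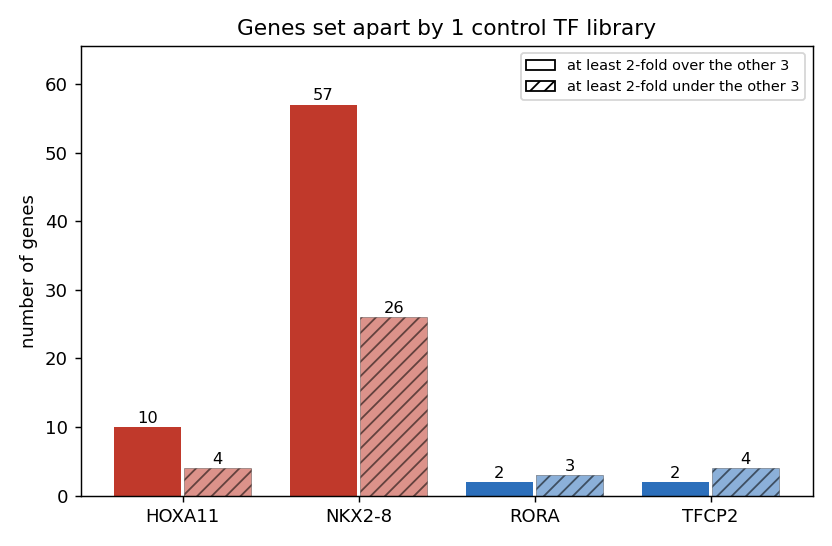
Number of genes in which 1 control TF library stood at least 2-fold above the highest (plain bars) or at least 2-fold under the lowest (hatched bars) of the 3 others, with the number above each bar and the y axis from 0. NKX2-8 had 57 and 26 such genes, and the 3 other libraries had between 2 and 10.

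Of the 10 genes at least 2-fold higher with HOXA11 than in the 3 others, 5 were protein-coding. HSPA6 and MISP among them were also separated, so NKX2-8 exceeded RORA and TFCP2 in both. DES, the muscle intermediate filament desmin, was at 2.14 CPM with HOXA11 against 0.73, 0.604 and 0.687 with NKX2-8, RORA and TFCP2. MISP was at 2.2 CPM against 0.796, 0.242 and 0.172. HSPA1A, an inducible HSP70, was at 9.34 CPM against 2.79, 2.72 and 4.12, although its near-identical copy HSPA1B was at 801, 601, 654 and 962 CPM. Only uniquely mapped reads were counted, so the level of each copy is uncertain. SNAI1, the repressor of E-cadherin in epithelial-mesenchymal transition, was at 4.46 CPM against 1.92, 1.33 and 1.6, a HOXA11 to NKX2-8 ratio of 2.32 (95% interval 1.49 to 3.69). The CLB_TF libraries held 2 to 3.62 CPM of SNAI1 and the control library 1.14 CPM. Lowest with HOXA11 were TRHDE, a peptidase that inactivates thyrotropin-releasing hormone, at 0.535 CPM against 1.57 to 2.06 in the 3 others, PHF24 at 0.832 CPM against 1.83 to 2.46, and the lncRNAs LINC02298 and PRECSIT at 0.476 and 0.357 CPM.

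With NKX2-8, SFN, which encodes the cell cycle inhibitor 14-3-3 sigma of epithelia, was at 9.29 CPM against 1.96 with HOXA11, 0.604 with RORA and 1.03 with TFCP2. The NKX2-8 to HOXA11 ratio was 4.73 (95% interval 3.22 to 7.14), and the other 5 libraries held 0.484 to 0.874 CPM, so HOXA11 also exceeded all of them. CDH15, the muscle cadherin, was at 3.12 CPM against 0.416 with HOXA11, a ratio of 7.49 (3.37 to 19.6), but NRF1 and ZBTB7A were at 5.99 and 3.52 CPM. RUNDC3A, a neuronal RAP2-interacting protein, was at 7.76 CPM against 2.56, 1.75 and 1.77. OVGP1, the oviduct glycoprotein, was at 11.8 CPM against 4.22, 3.68 and 3.09. ALOX5, which starts leukotriene synthesis, was at 4.58 CPM against 1.55, 0.846 and 1.37, and OSGIN1, an NRF2-responsive gene, was at 4.58 CPM against 1.19, 1.33 and 1.37. XKR7, PLXNB3, the plexin for semaphorin 5A, FOXJ1 and ETV7 were the other protein-coding genes that the naming rule took from the 51 on this list, with levels of 2.52 to 4.11 CPM in the NKX2-8 library. In the CLB_TF libraries, ETV7 reached 2.84 CPM with NRF1 against 2.52 with NKX2-8, and FOXJ1 reached 4.87 CPM with E2F4 against 4.11. RUNDC3A and ALOX5 reached 6.49 and 4.35 CPM with NRF1. OVGP1, OSGIN1, XKR7 and PLXNB3 reached at most 6.18, 2.49, 1.39 and 1.06 CPM there. Among lncRNAs, WEE2-AS1 was at 4.45 CPM against 1.09 to 1.49 and DLG5-AS1 at 2.92 CPM against 1.19 to 1.27, followed by TMEM254-AS1 and ZRANB2-DT. The NRF1 library held 2.9 CPM of DLG5-AS1.

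IRF9, the DNA-binding subunit of the interferon-activated ISGF3 complex, had 1 count in the NKX2-8 library against 19 in the HOXA11 library, a HOXA11 to NKX2-8 ratio of 17 (95% interval 2.71 to 707). CCN2, a matricellular target of YAP and TGF-beta, was at 0.531 CPM with NKX2-8 against 1.72, 2.24 and 2.46 with HOXA11, RORA and TFCP2. HSF4, a heat shock factor of the lens, was at 1.79 CPM against 5.65, 4.17 and 4.64, and TNFRSF13C, the BAFF receptor, at 1.26 CPM against 3.98, 3.26 and 3.49. NDUFA13, a subunit of respiratory complex I, was at 1.26 CPM against 3.09, 3.14 and 3.55. These levels were far below the 88.2 to 102 CPM of NDUFB7, another subunit of this complex, in the same libraries. Whether the reads of NDUFA13 were fully counted was not tested. The lncRNA ZNF436-AS1 was at 2.19 CPM against 5.13 to 5.65 in the 3 others. All other libraries lay above NKX2-8 in HSF4, where the control and CLB_TF libraries held 3.87 to 5.8 CPM.

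Of the 13 protein-coding genes of the mitochondrial genome, 11 were higher in both homeodomain libraries than in RORA and TFCP2 and 0 were lower. Over all genes these shares were 18.4% and 20.7%. At an unadjusted p below 0.05 in edgeR's quasi-likelihood test, 11 of the 13 were higher, against 4.2% of all genes. The 13 genes belong to 1 genome and were measured in the same libraries, so they are not independent replicates. None passed the adjusted p in edgeR's quasi-likelihood test. DESeq2's Wald test, run as an alternative, called MT-CYB, MT-CO3, MT-ND3, MT-CO2, MT-ATP6, MT-ND2 and MT-ATP8 higher, and without its independent filter all of these but MT-ATP8. MT-CYB, cytochrome b of complex III, was at 2280 CPM with HOXA11 and 2770 with NKX2-8 against 1660 with RORA and 1760 with TFCP2, while the control library held 1580 CPM and the CLB_TFs 1450 to 2000 CPM. The log2 fold change was 0.57 ± 0.09 (edgeR adjusted p = 0.314). MT-CO3, a cytochrome oxidase subunit, was at 3460 and 4360 CPM against 2710 and 2690 CPM, a log2 fold change of 0.54 ± 0.10 at the same adjusted p. MT-ND3, of complex I, was at 559 and 697 CPM against 438 and 448 CPM. In 9 of the 13 both homeodomain libraries were above all 7 other libraries, against 4.95% of all genes. The share of counts from the mitochondrial genome was 4.71% with HOXA11 and 5.59% with NKX2-8, 4.33% and 4.12% with RORA and TFCP2, 4.04% in the control and 3.55% to 4.42% with the CLB_TFs. The median log2 fold change of the 13 genes was 0.40, against -7.491e-05 over all genes, with NKX2-8 above HOXA11 by a median of 0.27. It was 0.24 without the NKX2-8 library and 0.50 without the HOXA11 library.

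No nuclear gene of the mitochondrial lists was called. Of 74 mitochondrial ribosomal proteins, 26 were higher (35.1%, against 18.4% of all genes) and 6 lower (8.11%, against 20.7%) in both homeodomain libraries, with a median log2 fold change of 0.06 that was 0.03 without the NKX2-8 library. Among 36 nuclear subunits of complex I, 12 were higher (33.3%) and 6 lower (16.7%), and among 38 subunits of complexes II to V, 12 were higher (31.6%) and 2 lower (5.26%). The proteasome, which degrades ubiquitinated proteins, had 13 of 31 subunits higher (41.9%) and 0 lower, with a median of 0.08 that was 0.04 without NKX2-8. Of 75 cytoplasmic ribosomal proteins, 14 were higher (18.7%, near the share of all genes) and 6 lower (8%).

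**Figure D4:**
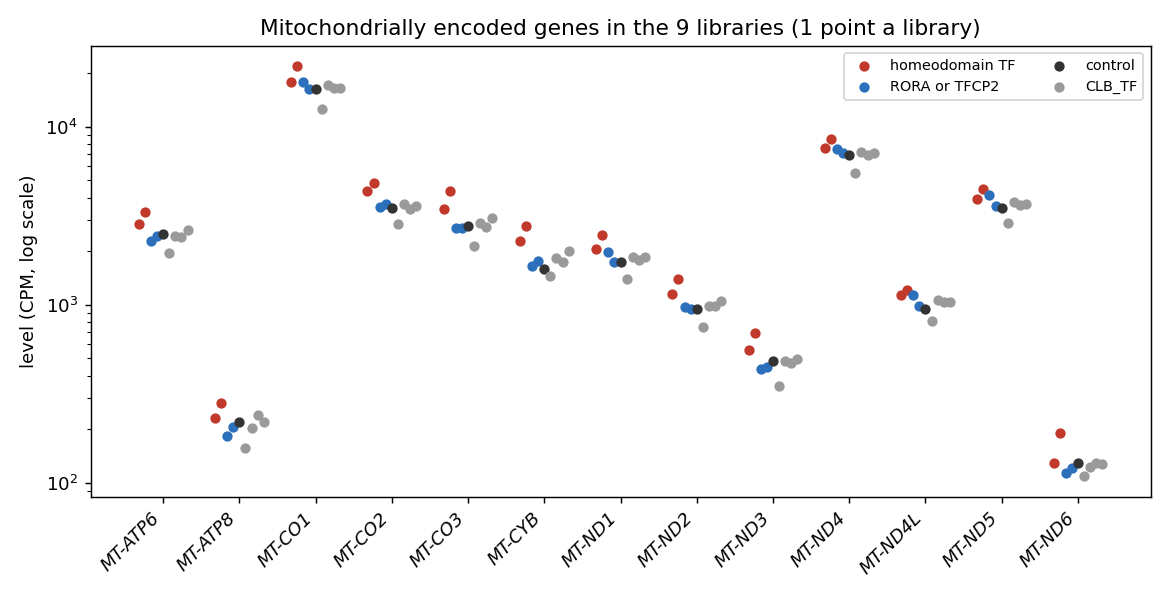
Levels in CPM, on a log axis, of the 13 genes encoded by the mitochondrial genome, with 1 point for each of the 9 libraries colored by group. The red points of the homeodomain TFs stood above all other points in 9 of the 13 genes, with NKX2-8 at 2770 CPM and HOXA11 at 2280 CPM for MT-CYB.

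The endogenous HOX genes, which pattern the body axis, included 34 that passed the filter on low counts. Of these, 17 were lower in both homeodomain libraries (50%, against 20.7% of all genes) and 2 higher (5.88%, against 18.4%). The median log2 fold change was -0.15, or -0.07 without NKX2-8 and -0.32 without HOXA11, and no member was called. The 2 TFs differed, since the median against the mean of RORA and TFCP2 was -0.07 with HOXA11 and -0.33 with NKX2-8. HOXB3 was at 37.5 CPM with HOXA11 and 20.4 with NKX2-8 against 39 with RORA and 43.4 with TFCP2, and the control and CLB_TF libraries held 36.6 to 42.1 CPM. HOXA3 was at 14.9 and 9.69 CPM against 17.3 and 17.2 CPM. HOXA13, which was looked at after its values were seen, was at 88.5 and 80.7 CPM against 110 and 107 CPM, with a log2 fold change of -0.35 at an unadjusted p of 0.0009887 in edgeR's test. HOXD3 lay slightly the other way, at 1.31 and 0.863 CPM against 0.846 and 0.801 CPM. HOX proteins are cofactor-dependent, and among 16 TALE cofactors PBX3 was at 30.9 and 31.5 CPM against 38.7 and 39.5 CPM, whereas MEIS3 was at 33.6 and 40.1 CPM against 29.4 and 27.8 CPM. Both missed the adjusted threshold in edgeR's test, with adjusted p values of 0.54 and 0.542.

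Genes of glycolysis and the hypoxia response lay lower in 16 of 26 measured members (61.5%, against 20.7%) and higher in 0, with a median log2 fold change of -0.16. P4HA1, a collagen prolyl hydroxylase induced by hypoxia, was at 167 and 159 CPM with the homeodomain TFs against 198 and 197 CPM, with a log2 fold change of -0.27 ± 0.06 (edgeR adjusted p = 0.503). HK2, hexokinase 2, was at 233 and 176 CPM against 251 and 244 CPM. Without NKX2-8 the list median was -0.06, and without HOXA11 it was -0.24. Of 12 YAP targets 6 were lower (50%) and 0 higher, with a median of -0.24 that was -0.16 without NKX2-8. Of 25 collagen and matrix genes 9 were lower (36%) and 1 higher (4%), with a median of -0.17 that was -0.06 without NKX2-8, -0.10 without RORA and -0.25 without HOXA11. NKX2-8 again lay lower than HOXA11 in both lists, with -0.29 against -0.14 and -0.26 against -0.06 relative to RORA and TFCP2. Of the 3 fibroblast markers that passed the filter, PDGFRA and COL3A1 were lower and COL1A1, at 34.9 and 30.1 CPM against 28.6 and 23.4 CPM, was higher in both homeodomain libraries. The TLE corepressors, which many homeodomain proteins recruit, split, with TLE3 and TLE4 at 112 to 130 CPM against 137 to 161 CPM and TLE6 at 3.09 and 4.31 CPM against 1.87 and 2.18 CPM. None of the members of these lists was called.

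**Figure D5:**
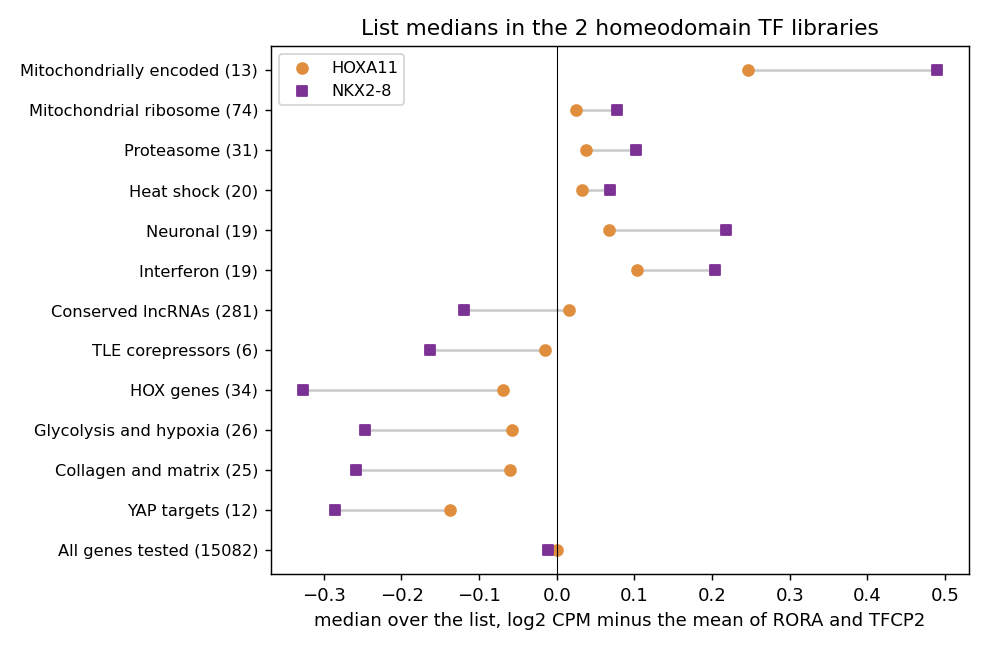
Median over each gene list of log2 CPM minus the mean of the RORA and TFCP2 libraries, for HOXA11 (circles) and NKX2-8 (squares), with the number of measured genes in parentheses. NKX2-8 lay farther from 0 than HOXA11 in each list drawn, from 0.49 for mitochondrially encoded genes to -0.33 for HOX genes, and the median of all genes was near 0 in both.

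The neuronal list held the called gene VGF and the separated genes NEFH and NCAN. Of 19 measured members 9 were higher (47.4%, against 18.4% of all genes) and 4 lower (21.1%, near the 20.7% of all genes) in both homeodomain libraries. The median log2 fold change of 0.09 was 0.22 without RORA, 0.21 without HOXA11 and 0.06 without NKX2-8 or TFCP2. NCAN, a brain chondroitin sulfate proteoglycan, was at 1.84 and 2.19 CPM against 0.846 and 0.63 CPM, but at 28.5 CPM with NRF1. SYN1, a synaptic vesicle phosphoprotein, was at 2.08 and 3.78 CPM against 1.21 and 1.09 CPM. NEFM, the medium neurofilament subunit and a marker of 293T cells, went the other way, at 343 and 300 CPM against 373 and 382 CPM.

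HSPA6 was not on the heat shock list. Of its 20 measured members 3 were higher (15%, against 18.4% of all genes) and 1 lower (5%, against 20.7%) in both homeodomain libraries. The median log2 fold change of 0.06 was 0.02 without RORA, 0.03 without NKX2-8 and 0.12 without TFCP2. DNAJB1, an HSP40 co-chaperone, was at 174 and 139 CPM against 119 and 131 CPM (log2 fold change 0.33 ± 0.10, edgeR adjusted p = 0.533). HSPB1, a small heat shock protein, was at 159 and 131 CPM against 115 and 122 CPM. Of 19 interferon genes 4 were higher (21.1%, near the share of all genes) and 1 lower (5.26%). Their median of 0.18 was 0.08 without RORA and 0.10 without NKX2-8. IFIT1, which binds viral RNA, was at 5.95 and 6.44 CPM against 4.05 and 3.72 CPM. The clock and ROR target list, which bears on the RORA side, had 7 of 19 genes lower (36.8%, against 20.7% of all genes) and 1 higher (5.26%, against 18.4%). Its median was -0.06. Against the mean of RORA and TFCP2 the median was 0.002 with HOXA11 and -0.16 with NKX2-8, so the shift lay in the NKX2-8 library. The list for the decidua and reproductive tract, where HOXA11 acts, had 2 of 9 measured genes higher (22.2%) and 3 lower (33.3%). Its median was -0.009, and the shares over all genes were 18.4% and 20.7%. WNT7A, a Wnt ligand of the female reproductive tract, was at 0.773 and 0.664 CPM against 0.0604 and 0.229 CPM. FOXO1, a forkhead factor of decidualization, went the other way at 20.3 and 24.2 CPM against 26.9 and 27.7 CPM. The lung, thyroid and liver list for NKX2-8 had 1 of 4 measured genes higher (25%) and 1 lower (25%), too few genes to read against 18.4% and 20.7% of all genes. FOXA3, a liver and gut forkhead factor, was at 3.51 and 4.84 CPM against 1.87 and 1.83 CPM (log2 fold change 1.13 ± 0.27, edgeR adjusted p = 0.503), and FOXA1 was at 9.51 and 9.49 CPM against 9.79 and 10.8 CPM. The CLB_TFs held 1.8 to 4.93 CPM of WNT7A and 1.58 to 2.41 CPM of FOXA3.

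Among lncRNAs, 1883 passed the filter on low counts. Of these, 8 were separated with the homeodomain TFs higher (0.425%, against 0.179% of all genes) and 1 lower (0.0531%, against 0.00663%). The 1 lower gene, HDHD5-AS1, is the same gene in both shares. Of the 27 separated higher genes, 24 were under 5 CPM, against 25.9% of all genes tested. The shares of all genes are therefore not matched for level. Of 281 conserved lncRNAs measured, of 1731 in the table, 0 were separated, too few genes to read against a background of 0.179%. In both homeodomain libraries 37 were higher (13.2%, against 18.4% of all genes) and 65 lower (23.1%, against 20.7%). The median log2 fold change of -0.04 was -0.12 without HOXA11, -0.07 without RORA, -0.00028 without NKX2-8 and -0.00074 without TFCP2. Against the mean of RORA and TFCP2 it was 0.02 with HOXA11 and -0.12 with NKX2-8. HOTAIR, a lncRNA of the HOXC cluster, was at 10.5 and 6.37 CPM against 8.76 and 10.6 CPM, and MALAT1, an abundant nuclear lncRNA, was at 305 and 454 CPM against 331 and 367 CPM. The sides overlapped for both. HOXA11-AS, which overlaps the inserted gene, was at 44.6 CPM with HOXA11 and 27.5 CPM with NKX2-8 against 35.8 and 36.4 CPM, with a log2 fold change of 0.01 ± 0.18 (edgeR adjusted p = 0.997). HOTAIRM1, of the HOXA cluster, was at 38.6 and 31.5 CPM against 41.3 and 47.8 CPM.

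Promoter sequence was described for the 10 of 27 separated genes that had a RefSeq window. The NK2 core CAAGTG was in 0 of the 10, against 8.34% of all promoters of tested genes, and the same held for AGGTCA, present in 9.31% of all promoters, for TTTACG, present in 4.02%, and for the paired CTGG motif, present in 3.9%. TTTATG was in 1, that of GPR3, against 4.85% of all. The cAMP response element was in VGF and GPR3, and the heat shock core in HSPA6 and ZNF331. No test was made on so few windows. In genes at least 2-fold higher with NKX2-8 than with HOXA11, CAAGTG was in 12 of 101 promoters (11.9%), and in genes higher with HOXA11 it was in 8 of 82 (9.76%). TTTATG was in 0.99% of the first and 4.88% of the second.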

How the data were processed

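Per the study's methods and the submitters' processing notes, the authors checked reads with FastQC 0.11.2, aligned read pairs to GRCh37 with STAR 2.6.0c, used featureCounts 1.6.3 to count the uniquely mapped ones per gene and deposited raw counts for 57163 genes in 9 libraries. Libraries were made with a directional kit, but whether strand entered the counting is not stated. The labels name TRIzol and the methods a miRNeasy kit for RNA. Symbols and classes came from GENCODE v44lift37 on GRCh37, and promoter sequences from RefSeq on GRCh38.p14, with no coordinate carried between builds.

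Samples were grouped by the TF in their label, 2 against 2. Genes passing edgeR's filterByExpr were scaled by TMM and tested with edgeR 4.0.16 (R 4.3.3) by quasi-likelihood, two-sided, with Benjamini-Hochberg adjustment at 0.05. In a check on simulated data, 31, 42, 49 and 50 of 50 genes changed 1.5-fold, 2-fold, 4-fold and 8-fold were called. There were 15 false calls among the unchanged genes. The SE of a log2 fold change is its size over the root of F. The common biological coefficient of variation was 0.0905. Levels are CPM with TMM over all 9 libraries, and log2 differences used a prior count of 2. Intervals are exact conditional binomial 95% intervals. The 4 inserted genes were left out because plasmid reads count for them.

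The members and gene lists were chosen with earlier results of these data known. Named genes were the called genes, then the separated genes ranked by the gap between the sides, the genes farthest beyond the other control TF libraries for HOXA11 and for NKX2-8, up to 4 members a list by size of log2 fold change, and HOTAIR, MALAT1, HOXA11-AS and RORA-AS1. HOXA13, HSPA1B, PADI3 and ZNF331 were named after their values were seen. RORA-AS1 did not pass the filter. Alternatives were other scalings, filters and prior counts, DESeq2 1.42.0, limma-voom (limma 3.58.1), a fit of all 8 TF libraries, the control library as reference, and leaving out each library.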

Additional observations from a re-analysis of the deposited data

Results flagged for a closer look

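In 12 named genes the 4 CLB_TF libraries were checked for 1 library far from the 3 others. The cut was set to flag about 1 of 20 groups of repeats of 1 condition. These libraries carried 4 different TFs, so that rate does not apply and the flags are a description. VGF stood at 42 CPM with EGR1 against 5.46 to 10.5 CPM with the others. HSPA6 stood at 13.9 CPM with NRF1 against 0.898 to 2.12 CPM. FOXJ1 stood at 4.87 CPM with E2F4 against 0.378 to 0.812 CPM. ISLR2 stood at 4.79 CPM with NRF1 against 0.224 to 0.898 CPM. Each of these genes was separated between the homeodomain TFs and RORA with TFCP2, and each CLB_TF value rests on 1 library.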

How the results depend on the processing

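The counts of called genes depended on the fit. Against 2 higher and 0 lower, there were 118 and 44 without a filter on low counts, 9 and 3 with DESeq2's Wald test, 9 and 1 with DESeq2 without independent filtering (added after seeing the data), 0 higher with all 8 TF libraries in 3 groups, and 7 and 1 with the control library as reference. Most higher calls of DESeq2 were mitochondrially encoded genes. Its independent filter left 14039 genes, DHRS2 and VGF among them, with no adjusted p. Leaving out 1 library gave 3 to 786 higher and 0 to 962 lower. The cause was not tested. Other scalings, limma-voom, a mean of at least 1 CPM and leaving out mitochondrially encoded genes (added after seeing the data) kept the same 2 calls. DHRS2 and VGF lost their calls only with all 8 TF libraries among the fits that gave them an adjusted p.

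Against 27 separated genes higher and 1 lower, there were 3 and 0 at a minimum of 5 CPM, 88 and 22 at 1.5-fold, 2 lower with a prior count of 0.5, and 47 to 127 higher and 7 to 51 lower without 1 library, where 1 library on a side makes separation easier. At 5 CPM, 36 genes were higher with HOXA11 than with NKX2-8 and 25 the reverse. At 5 CPM the larger of these lists was thus that of HOXA11, and without HOXA11 more genes were called lower than higher. The medians of the 12 gene lists rerun, cytoplasmic ribosome, clock and complex I to V lists not among them, kept their sign under the added scalings and without each library. No paired analysis was possible because the labels give no replicate numbers. Depth limits genes near 1 CPM, which rest on few counts.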
